A study of Drosophila melanogaster with 2 samples.

Results

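Candidate binding regions of Ash1 that lie far from any gene start in Drosophila melanogaster embryos were examined here, 5838 of the 30000 candidate regions called from both ChIP-seq replicates pooled. A region was counted as distal when its summit lay over 5000 bp from every annotated transcription start site (TSS), transposable elements left out. The summit also had to lie in no coding exon and outside the 2 Hox gene complexes. Within the candidate list the distal set was therefore chosen by position alone, without regard to the signal value of a region. The candidates themselves had been called from the ChIP-seq data. Of the 30000 candidates, 1567 (5.22%) had passed the authors' irreproducible discovery rate (IDR) threshold, and these are called peaks. Such a threshold is set by the agreement between replicates. The peaks were exactly the 1567 candidates of highest pooled signal. A peak is thus a region strong in the pool and need not be strong in each replicate. Among the distal regions 130 were peaks. Another 414 regions as far from a TSS, 2 of them peaks, were set aside because the summit lay in a coding exon, and 262, with 11 peaks, because they lay in a Hox complex.

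The study has 1 group, whole embryos of both sexes collected at 0 to 24 h of development from a transgenic line whose Ash1 is fused to GFP at the C-terminal end. It comprises 2 samples, biological replicates 2 and 4. A free-text label describes each sample as an input control, but the antibody label (ash1), the assay name and the peak lists are those of immunoprecipitated chromatin. Embryos of all stages and tissues were pooled, so the cells in which a region was occupied cannot be told apart. No untagged strain was analysed here, and each list was called against 1 control alignment that both replicates share. Read counts do not come with the lists, so the depth is unknown and the intervals below cover the counting of regions only.

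Ash1 is a trithorax group protein that methylates lysine 36 of histone H3 and counteracts silencing by the Polycomb group at developmental genes. In Drosophila, many genes for transcription factors and signalling proteins are controlled by enhancers and by Polycomb response elements that lie far from the promoter, often within long introns. GAGA factor, the product of Trithorax-like, binds GA repeats at promoters and at many Polycomb response elements. Fork head family proteins are winged-helix transcription factors that recognise a short AT-rich core.

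Of the 20 short sequences looked for within 100 bp of each summit, on both strands, 3 stood out against the other distal candidates. They are TGTTTAC, the core bound by fork head family proteins, and the GA repeat bound by GAGA factor, as GAGAG and as the longer GAGAGAG. Their shares, given further on, were not told apart between distal peaks and peaks that were not distal. The sequences that follow are shown because their regions rank among the strongest distal peaks that hold these letters. All are from the RefSeq copy of the dm6 assembly, and ranks are by the authors' signal in the pooled list, with 1 the strongest. In the 3 whole windows, read on the plus strand, capitals mark TGTTTAC and the GA repeat on either strand, the repeat wherever GAGAG occurs.
spen intron, rank 146, chr2L:166653-166853, plus strand: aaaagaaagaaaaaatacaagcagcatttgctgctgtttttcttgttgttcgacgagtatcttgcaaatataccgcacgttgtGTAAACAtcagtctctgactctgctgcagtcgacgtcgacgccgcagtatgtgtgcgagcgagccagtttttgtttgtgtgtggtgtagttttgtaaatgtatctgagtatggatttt
crp intron, rank 96, chr2L:16269525-16269725, plus strand: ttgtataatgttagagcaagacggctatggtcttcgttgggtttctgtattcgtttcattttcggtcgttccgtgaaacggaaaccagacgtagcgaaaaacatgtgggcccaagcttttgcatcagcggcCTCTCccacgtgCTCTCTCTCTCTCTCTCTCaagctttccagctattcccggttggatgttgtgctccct
hth intron, rank 389, chr3R:10622206-10622406, plus strand: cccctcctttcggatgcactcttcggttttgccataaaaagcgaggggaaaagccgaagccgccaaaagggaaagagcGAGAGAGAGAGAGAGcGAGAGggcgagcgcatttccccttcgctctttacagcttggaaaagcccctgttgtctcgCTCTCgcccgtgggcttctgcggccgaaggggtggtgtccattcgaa
The spen window holds 1 TGTTTAC core, close to the middle, where the summit lies. The crp and hth windows hold unbroken GA repeats instead.

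Shorter stretches around the core, each written along the strand that reads TGTTTAC, allow the flanks to be compared, with capitals marking the core. They come from 5 of the strongest regions that hold it, and from one farther from a TSS, in pum.
S intron, rank 85, chr2L:1072384-1072406, minus strand: atacagcgTGTTTACctactttg
spen intron, rank 146, chr2L:166728-166750, minus strand: gagactgaTGTTTACacaacgtg
cad intron, rank 214, chr2L:20781023-20781045, plus strand: cgaaatgcTGTTTACccacaagt
CG13917 intron, rank 334, first core, chr3L:1591900-1591922, plus strand: gtttccatTGTTTACgcgtaagt
CG13917 intron, rank 334, second core, chr3L:1591949-1591971, minus strand: ttttttttTGTTTACacagtttg
SKIP intron, rank 476, first core, chr3R:22147669-22147691, minus strand: tgtatttgTGTTTACtctgctgt
SKIP intron, rank 476, second core, chr3R:22147689-22147711, minus strand: ttgcccttTGTTTACcaacgtgt
pum intron, rank 542, chr3R:9127083-9127105, plus strand: ggtaaataTGTTTACccagcaat
The base after the core was A in 8 and C in 7 of the 20 cores found in distal peaks, against A in 78 and C in 63 of 265 cores in the other distal candidates. These 20 cores are too few to tell the flanks of the sets apart.

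GAGAGAG runs are shown in the same way, along the strand that reads GAGAGAG, with capitals marking 1 run, for 6 regions at 5 genes of transcription regulators and of an inhibitor of Dpp signalling.
crp intron, rank 96, chr2L:16269660-16269682, minus strand: gagagagaGAGAGAGcacgtggg
tara intron, rank 285, chr3R:16250239-16250261, minus strand: gatgacacGAGAGAGaaggaagg
between grn and CheA84a, rank 382, chr3R:8190949-8190971, plus strand: tagagaggGAGAGAGagaactgc
hth intron, rank 386, chr3R:10535916-10535938, minus strand: gagcgaaaGAGAGAGggagaatc
hth intron, rank 389, chr3R:10622276-10622298, plus strand: gaaagagcGAGAGAGagagagag
Dad intron, rank 473, chr3R:17065485-17065507, plus strand: ggctgagcGAGAGAGagggagtg
Runs differed in length: those in crp and in the hth region of rank 389 extended past the 7 letters on at least 1 side, while the tara run ended in both directions within the stretch shown.

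Distal regions were less often peaks than the rest of the candidates. Of 5838 distal regions 130 were peaks, or 2.23% (95% interval 1.86 to 2.64), against 1437 of 24162 other candidates, or 5.95% (5.65 to 6.25). Both stand beside 5.22% over all candidates. The odds ratio was 0.360 (0.298 to 0.432, adjusted p = 2.92e-35, two-sided Fisher exact test with Benjamini-Hochberg adjustment over 6 tests). Noncoding regions over 500 and up to 5000 bp from a TSS gave 485 peaks of 11597 (4.18%), and against these the odds ratio was 0.522 (0.425 to 0.636, adjusted p = 2.60e-11, Fisher exact test). Regions are not independent replicates, so these p-values describe the listed regions and say nothing of the spread from one embryo collection to another.

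By distance, the share of peaks was 12.1% up to 500 bp from a TSS, 6.24% from there to 1000 bp, 4.19% to 2000 bp and 3.10% to 5000 bp. In the distal classes it was 2.64% (89 of 3368) up to 10000 bp, 1.70% (32 of 1880) from there to 20000 bp and 1.53% (9 of 590) beyond. The order was the same when each replicate's own 1567 strongest candidates were counted: the 3 distal classes gave 2.55%, 1.77% and 1.48% in replicate 2, and 2.71%, 1.90% and 1.58% in replicate 4. Within the distal set the far regions did not differ detectably from the nearer ones: 9 of 590 (1.53%) beyond 20000 bp were peaks, against 121 of 5248 (2.31%) at up to 20000 bp, an odds ratio of 0.656 (0.291 to 1.30, adjusted p = 0.391, Fisher exact test).

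**Figure D1:**
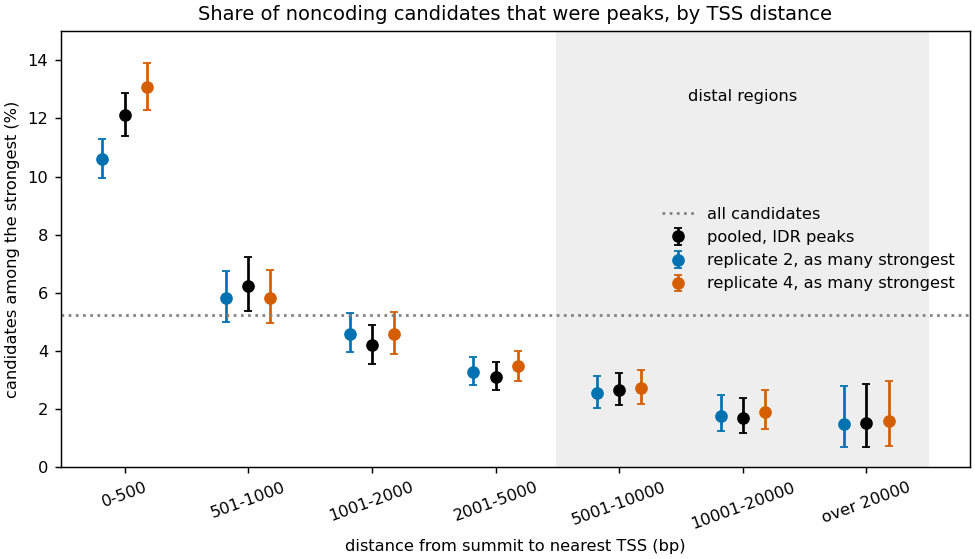
Share of noncoding candidates outside the Hox complexes that were peaks (y axis, %), by distance from the summit to the nearest TSS (x axis, bp), in the pooled list and among as many strongest candidates of each replicate. Bars are 95% Clopper-Pearson intervals and the dotted line marks 5.22%. In the shaded distal classes every point lies under 3%.

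Most distal peaks lay in introns. Of the 130, 95 had the summit in an intron, 32 between genes, 2 in a 3' UTR and 1 in a 5' UTR. Introns and intergenic stretches were called at like rates, 95 of 4044 (2.35%) against 32 of 1675 (1.91%), with an odds ratio of 1.24 (0.816 to 1.91, adjusted p = 0.391, Fisher exact test), an interval that leaves room for a difference in either direction. On the X chromosome 19 of 982 distal regions (1.93%) were peaks, against 111 of 4856 (2.29%) on the autosomes, an odds ratio of 0.843 (0.487 to 1.39, adjusted p = 0.555, Fisher exact test). Of 9 distal candidates inside an annotated transposable element 0 were peaks, which allows a share of up to 33.6%, beside 2.23% of all distal regions.

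Distal peaks were mostly of middling strength. The deposited signal, whose scale is not stated, had a median of 116 (range 92.9 to 731) in the distal peaks and 124 in peaks within 500 bp of a TSS. Among the 500 strongest regions stood 27 of 130 distal peaks (20.8%), against 473 of the 1437 other peaks (32.9%). One was among the 20 strongest of the whole list.

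That one lay in an intron of sbb (scribbler, a nuclear cofactor of transcription), at chr2R:18337059-18337306 and 20112 bp from the nearest TSS. Its signal was 333 in replicate 2 and 397 in replicate 4, at rank 5 in each, and its pooled rank was 4 (signal 731). No other distal peak ranked within the first 40. A second distal peak in the same gene, 3719 bp away, ranked 1513, while the strongest candidate at the sbb promoters ranked 4986 and was no peak.

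Regions in 5 further introns ranked within the first 150. The intron of Lrch, which encodes a protein with leucine-rich repeats and a calponin homology domain, had pooled rank 48, with rank 46 in replicate 2 and 67 in replicate 4. CG32486 followed at 52 (ranks 63 and 58). S (Star, needed for export of the EGF receptor ligand Spitz) ranked 85, with ranks of 194 in replicate 2 and 48 in replicate 4. In crp (cropped, a basic helix-loop-helix leucine zipper factor) the strongest region ranked 96, with ranks of 145 and 99. The spen region (split ends, a nuclear RNA-binding corepressor) ranked 146, with ranks of 154 and 183. All 5 were strong in both replicates, that is, among the 1567 strongest of each.

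The next regions by rank are given with the roles of their genes. A region between Su(z)2, a Polycomb group gene, and CG13323 ranked 150 in the pool and 669 in replicate 4, and replicate 2 had no candidate within 100 bp of its summit but 1 of rank 72 at 101 bp. A second region in that interval ranked 399, with ranks of 217 in replicate 2 and 1272 in replicate 4. The region between hth (homothorax, a homeodomain cofactor of Hox proteins) and CG6465 ranked 202 and was uneven: its rank was 16087 in replicate 2 and 177 in replicate 4. An intron of cad (caudal, a homeodomain protein of posterior patterning) held rank 214, with ranks of 320 and 176. The 3' UTR of tio (tiptop, a zinc finger protein related to teashirt) held rank 383, with ranks of 251 and 591.

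Between grn (grain, a GATA factor) and CheA84a, rank 382 in the pool came with 428 in replicate 2 and 471 in replicate 4. Rank 402, between noc (a zinc finger protein) and CG33648, came with 738 and 291. The Gug (Grunge, the Atrophin corepressor) intron ranked 416, at 150 in replicate 2 and 1063 in replicate 4. An intron of apt (apontic, a transcription factor) ranked 419, with 848 and 433. At rank 301 stood an intron of CG46321 that lies in Hr3 too, a nuclear receptor of the ecdysone response, with ranks of 221 and 684. Rank 318 lay in Su(Tpl), which encodes the elongation factor ELL, and also within Mi-2, with ranks of 187 and 454.

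The others of the 25 strongest were at genes of other kinds. Dad (Daughters against dpp, an inhibitory SMAD) held rank 473, with ranks of 365 in replicate 2 and 495 in replicate 4. SKIP, named for its interaction with the Shal potassium channel, held rank 476 (ranks 490 and 647), and CG13917 rank 334 (395 and 403). An intron of lncRNA:CR44357 held rank 390 and ranked 1423 in replicate 2 and 219 in replicate 4. Its summit lay 190 bp past the 3' end of Cph and 15667 bp from the nearest TSS, also of Cph. The rest were regions of tara and hth, described below. Across the 25, 19 lay in introns, 5 between genes and 1 in a 3' UTR, between 5172 and 22832 bp from a TSS, and 23 were strong in both replicates. Replicate 2 gave the better rank in 12 of them and replicate 4 in 11.

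**Figure D2:**
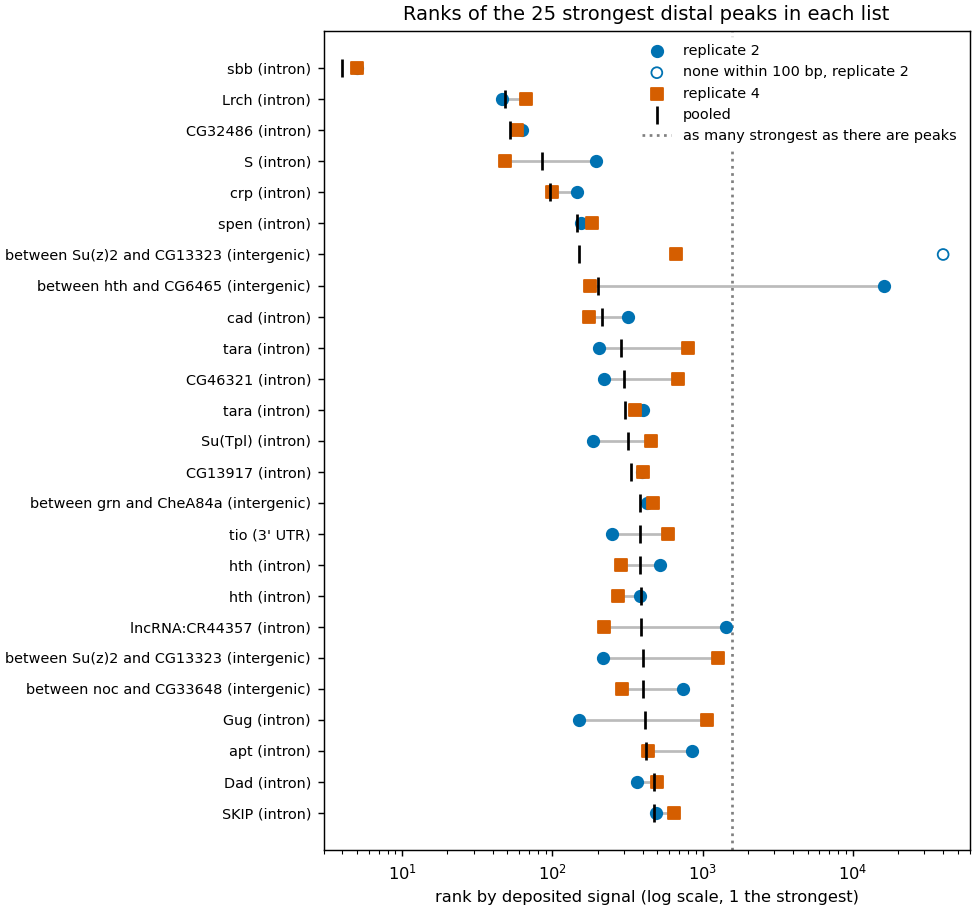
Rank by deposited signal (x axis, log scale, 1 the strongest) of the 25 strongest distal peaks, 1 row each, in replicate 2 (circles), replicate 4 (squares) and the pooled list (bars). The dotted line is at rank 1567, and the open circle marks a region with no replicate 2 candidate within 100 bp. All but 2 rows have both replicates left of the line.

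Fewer of all 130 distal peaks than of the 25 strongest were strong in both replicates. Those 25 were picked by the signal of the 2 replicates pooled, so a higher share among them follows from the choice. Strong in both replicates were 51 (39.2%), against 675 of the 1437 other peaks (47.0%), an odds ratio of 0.729 (0.494 to 1.07, adjusted p = 0.197, Fisher exact test). Of the rest, 30 (23.1%) were strong in replicate 2 alone, 37 (28.5%) in replicate 4 alone and 12 (9.23%) in neither. Among the other peaks these shares were close, at 20.5%, 25.5% and 7.03%. Replicate 2 had no candidate within 100 bp of 7 distal peaks (5.38%, against 4.52% of the other peaks). Replicate 4 had none within 100 bp of 5 (3.85%, against 4.11%). Among the 119 distal peaks with a candidate in both, Spearman's rho of the ranks was 0.07, and over the 1540 distal candidates with one in both it was 0.44. Both values describe the regions, which share a control, and the peaks span a narrow range of ranks by selection. Each replicate alone put 131 distal regions among its 1567 strongest.

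Altogether 4 genes held 3 or more distal peaks, and they differed in how many of their distal candidates these were. The shares were 21.7% in tara, 20% in crp, 16.7% in spen and 2.52% in hth, against 2.23% of all distal candidates. These genes were picked by their number of peaks, so a share above 2.23% in a gene with few candidates follows from the choice. In tara (taranis, a SERTA domain protein recovered as a trithorax group member), 5 of 23 distal candidates were peaks, 2 between its 2 TSSs and 3 downstream of the second. Counted from the 5' end of the 34679 bp gene they lay at 10143, 11371, 24595, 28553 and 30559 bp, with pooled ranks 711, 303, 285, 856 and 738. The strongest, of rank 285, ranked 203 in replicate 2 and 806 in replicate 4. That of rank 711 went the other way, with 1576 in replicate 2 and 255 in replicate 4. A promoter peak of rank 197 lay 136 bp from the second TSS.

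In crp, 3 of 15 distal candidates were peaks, at 14806, 16075 and 18105 bp from the 5' end. Their ranks were 831, 898 and 96, the farthest one from the crp TSS being the strongest. The nearest TSS to that region was that of CG4935, 7484 bp away. The region of rank 898 differed between replicates, with ranks of 6565 in replicate 2 and 319 in replicate 4. The spen gene held 3 of 18, at 6547, 7721 and 12635 bp from its 5' end. Ranks there were 1100, 146 and 1376, and the promoter peak at its 5' end ranked 140.

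The hth gene, 132008 bp long, held 3 of 119 distal candidates as peaks, at 17262, 42966 and 103603 bp from its 5' end. Their ranks were 389, 970 and 386. The first ranked 386 in replicate 2 and 274 in replicate 4. The last one, 22832 bp from the nearest TSS, ranked 520 in replicate 2 and 288 in replicate 4. A stronger hth region of rank 70, with ranks of 153 and 56, lay 9056 bp from a TSS but in a coding exon, and was therefore not counted as distal. The interval between hth and CG6465 added 3 more distal peaks, of ranks 202, 1391 and 1432.

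**Figure D3:**
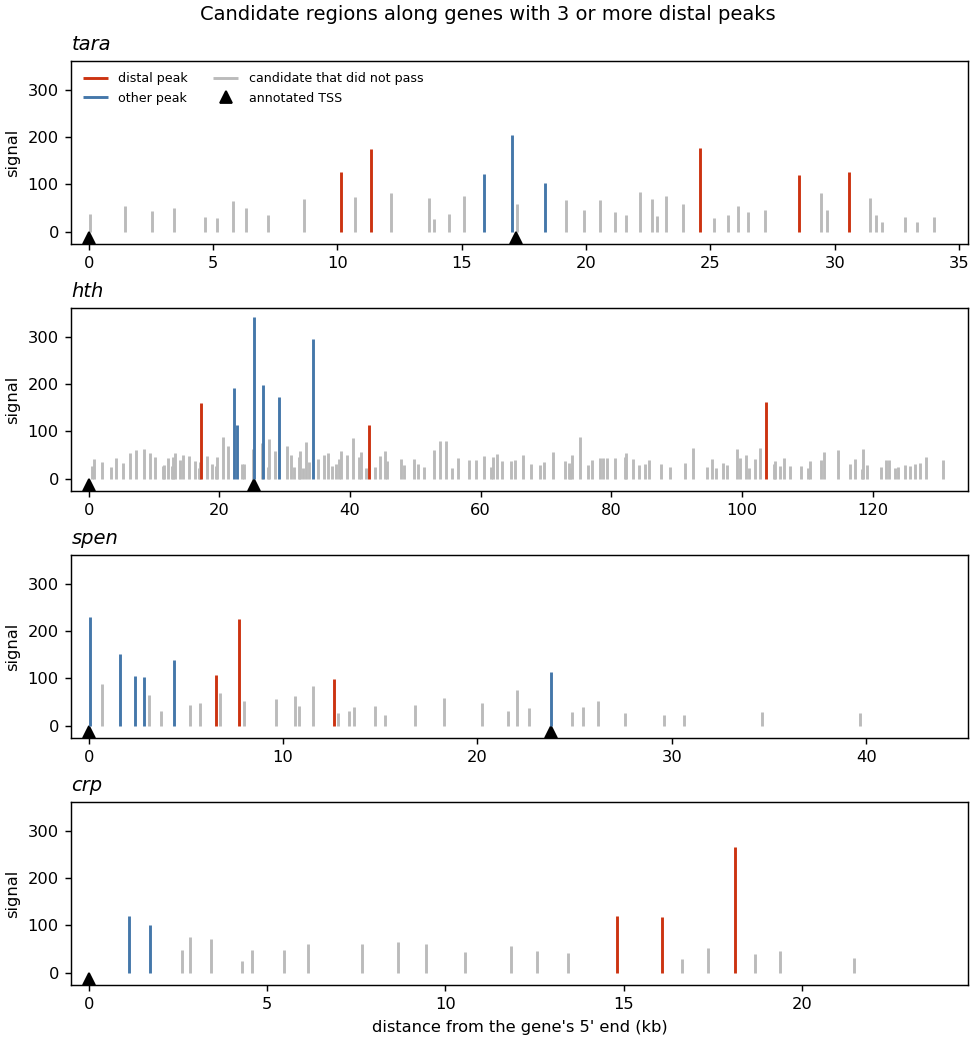
Deposited signal (y axis) of every pooled candidate along tara, hth, spen and crp, by distance of its summit from the gene's 5' end (x axis, kb). Red lines are distal peaks, blue lines other peaks and grey lines candidates that did not pass, and triangles mark the gene's TSSs. The strongest crp line, at 18105 bp, is its farthest peak from the TSS.

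Over all hosts, 98 distal peaks lay inside 74 genes. Of these genes 56 held 1, 14 held 2, 3 held 3 and 1 held 5. With peaks up to 10000 bp apart joined, the 130 formed 110 loci, of which 16 held several peaks (36 in all) and none more than 3.

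Of the 14 genes with 2 distal peaks, 6 are described, chosen after their values were seen. Tet, a dioxygenase that acts on methylated bases, held ranks 528 and 1001, the first with ranks of 653 in replicate 2 and 511 in replicate 4 and the other with 2177 and 716. In gpp (grappa, the methyltransferase of lysine 79 of histone H3) the ranks were 677 and 1087, and both regions were higher in replicate 2, with 593 against 1315 and 644 against 5227. The cic gene (capicua, an HMG box repressor relieved by EGF receptor signalling) held ranks 628 and 744. Of these the first ranked 991 in replicate 2 and 574 in replicate 4, the other 393 and 2019. Raf, the kinase of the same pathway, held ranks 578 and 1237, and bun (bunched, of the TSC22 family) 697 and 879. In simj, a subunit of the NuRD complex, the ranks were 1018 and 1443, and replicate 2 had no candidate within 100 bp of the first.

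Distal peaks lay nearer to other peaks than the other distal candidates did. The nearest other peak was at a median of 8489 bp from a distal peak and 22416 bp from another distal candidate. Another peak lay within 10000 bp of 74 of 130 distal peaks (56.9%, 48.0 to 65.6), against 1679 of 5708 other distal candidates (29.4%, 28.2 to 30.6). With regions under 1000 bp apart merged, the shares were 46.9% and 19.3%, and among the 10000 strongest candidates they were 56.9% and 43.5%. Of the 96 distal peaks inside a coding gene, 55 (57.3%, 46.8 to 67.3) were in one with a peak at its own promoter, against 1723 of 3963 other distal candidates (43.5%, 41.9 to 45.0). Among the 10000 strongest candidates the share in the others was 52.4%, which lies within the interval of the peaks. Counted by gene, 37 of 72 coding genes with a distal peak (51.4%, 39.3 to 63.4) had a promoter peak, against 164 of 664 coding genes with distal candidates but no distal peak (24.7%, 21.5 to 28.2). The genes with a distal peak also held more distal candidates, a median of 9 against 3, at nearly equal median lengths of 32357 and 31870 bp. The part of candidate density in this difference was not tested.

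Counted by region, which weights long genes with many candidates, host genes had a median length of 34679 bp for distal peaks and 48705 bp for other distal candidates. Counted by gene, as given above, the lengths were nearly equal. The GC content within 100 bp of the summit had a median of 44.3% in distal peaks and 45.8% in other distal candidates. With the strongest candidates of each replicate in place of the peaks, the medians were 43.3% and 43.8% in replicate 2. In replicate 4 they were equal, at 46.8%.

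Among the gene lists, homeodomain and other selector transcription factors hosted or flanked the most distal peaks, 9 of 130 (6.92%, 3.21 to 12.7), against 404 of 5708 other distal candidates (7.08%). They were at hth, cad, tio and tsh (teashirt, a zinc finger homeotic protein), the last at rank 971. The share of this list among the peaks was thus close to that of the other distal regions. The list leaves out zfh2, caup and mirr, homeodomain genes that are counted in the neural list. Mesoderm and heart transcription factors had none of 130, which allows up to 2.80%, against 1.65%. Neural transcription factors had 5 (3.85%, against 5.24%), led by a region of rank 650 between vvl (a POU factor) and Prat2, 109227 bp from vvl and 7831 bp from Prat2. The next were zfh2 (a zinc finger homeodomain protein) at 826 and a region between caup and mirr (Iroquois homeodomain proteins) at 896.

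Nuclear receptors and genes of the ecdysone cascade had 5 distal peaks (3.85%, 1.26 to 8.75), against 1.59% of other distal candidates. These were at Hr3 (rank 301), Eip75B (586 and 1113) and Hr4 (773 and 1082), each of which encodes a nuclear receptor. The interval reaches down to the share of the others. The list of Polycomb and trithorax group genes, in which tara is not included, had 4 (3.08%, against 2.35%): the 2 next to Su(z)2 and 2 at its neighbour and paralogue Psc, of ranks 1137 and 1144. The list of Notch, Dpp, EGFR and JAK-STAT pathway genes, which leaves out S, Raf and neur, had 4 (3.08%, against 2.12%), of which 2 in Dad lay 200 bp apart and the others were in vn (vein, an EGF receptor ligand, rank 803) and shn (schnurri, a zinc finger factor of Dpp signalling, rank 1053). Wnt and Hedgehog pathway genes had 2 (1.54%, against 2.38%), in fz (the Wingless receptor Frizzled, rank 794, 22174 bp from a TSS) and next to ptc (the Hedgehog receptor, rank 1326).

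The list of axon guidance and cell adhesion genes had few distal peaks. Its 34 genes with distal candidates carried 1 distal peak, in fra (the Netrin receptor Frazzled, rank 493), or 0.769% (0.0195 to 4.21), against 263 of 5708 other distal candidates (4.61%). The interval of the peaks ends below the share of the others, but it rests on 1 peak. Among the 10000 strongest candidates the others had 3.57%, within that interval, and with the 500 strongest regions as peaks the shares were 3.70% and 4.53%. With replicate 4 alone they were 1.53% and 4.47%, and with replicate 2 alone 0% and 4.91%. Ion channel and synaptic genes had none, against 1.37%. Cytoskeleton and muscle genes had 1 (0.769%, against 0.526%), next to Zasp52 (a muscle Z-disc protein, rank 1473). The listed long noncoding and microRNA genes, and cytoplasmic ribosomal protein genes, hosted or flanked no distal candidate, with flanks taken from coding genes alone. Taking the lists as 1 set, 31 distal peaks (23.8%) were at a listed gene, against 1619 other distal candidates (28.4%). Several lists count neighbouring regions of 1 gene, and the shares carry no test.

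GA repeats were more frequent in distal peaks than in the other distal candidates. GAGAG, which every GAGAGAG contains, occurred within 100 bp of the summit in 55 of 130 distal peaks (42.3%, 33.7 to 51.3), against 1556 of 5708 other distal candidates (27.3%, 26.1 to 28.4) and 28.3% of all 30000 candidates. The longer GAGAGAG occurred in 17 (13.1%, 7.81 to 20.1), against 222 (3.89%, 3.40 to 4.42) and 5.28% of all candidates. Among peaks that were not distal GAGAG occurred in 37.1% and GAGAGAG in 10.8%, both within the intervals of the distal peaks. With the 1567 strongest of each replicate in place of the peaks, the GAGAGAG shares were 15.3% against 3.92% in replicate 2, and 10.7% against 4.07% in replicate 4.

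TGTTTAC occurred in 16 of 130 distal peaks (12.3%, 7.20 to 19.2), against 254 of 5708 other distal candidates (4.45%, 3.93 to 5.02) and 5.46% of all candidates. Its share in peaks that were not distal was 8.70%, within the interval of the distal peaks. In replicate 2 17 of 131 distal regions held it, against 4.76% of the others, and in replicate 4 the shares were 13.7% and 4.13%. None of the 130 distal peaks held both GAGAGAG and TGTTTAC, which allows up to 2.80%, against 8 of 5708 other distal candidates (0.140%). The shorter GAGAG and TGTTTAC were together in 3 distal peaks (2.31%), against 1.17%. Either of GAGAGAG and TGTTTAC was held by 33 (25.4%, 18.2 to 33.8), against 8.20% of other distal candidates. The distance of TGTTTAC matches from the summit had a median of 17.5 bp over the 20 in distal peaks and 45 bp over the 265 in other distal candidates, and 14 of 20 (70.0%, 45.7 to 88.1) and 149 of 265 (56.2%) lay within 50 bp. For GAGAGAG the medians were 43 bp over 24 matches and 50 bp over 309. Matches were sought only within 100 bp of the summit. Such a match describes the letters in the window and says nothing of which protein was bound there.

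**Figure D4:**
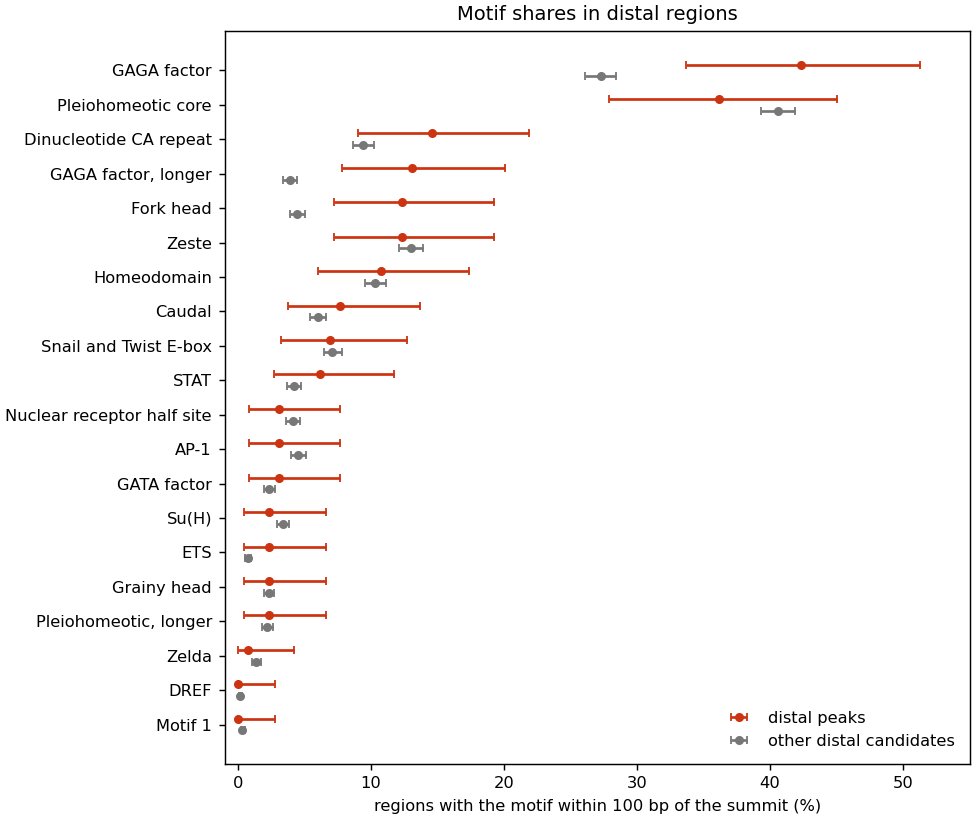
Share of regions (x axis, %) with each of 20 motifs within 100 bp of the summit, in the 130 distal peaks (red) and the 5708 other distal candidates (grey), with 95% Clopper-Pearson intervals. The intervals of the 2 sets are apart for both GAGA factor motifs and for Fork head.

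The shares of TGTTTAC and of GAGAGAG were both higher in stronger distal candidates. TGTTTAC was in 6 of 27 distal candidates (22.2%, 8.62 to 42.3) of ranks 1 to 500, in 9.71% of the remaining peaks, in 5.92% of the candidates from there to rank 5000, in 4.57% of those to rank 15000 and in 4.18% of those to rank 30000. GAGAGAG was in 8 of 27 (29.6%, 13.8 to 50.2), and then in 8.74%, 8.46%, 4.31% and 3.02% of the same classes. Of the 25 strongest distal peaks, 19 held GAGAG or TGTTTAC. Either was held by 68 of all 130 distal peaks (52.3%) and by 1743 of 5708 other distal candidates (30.5%).

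**Figure D5:**
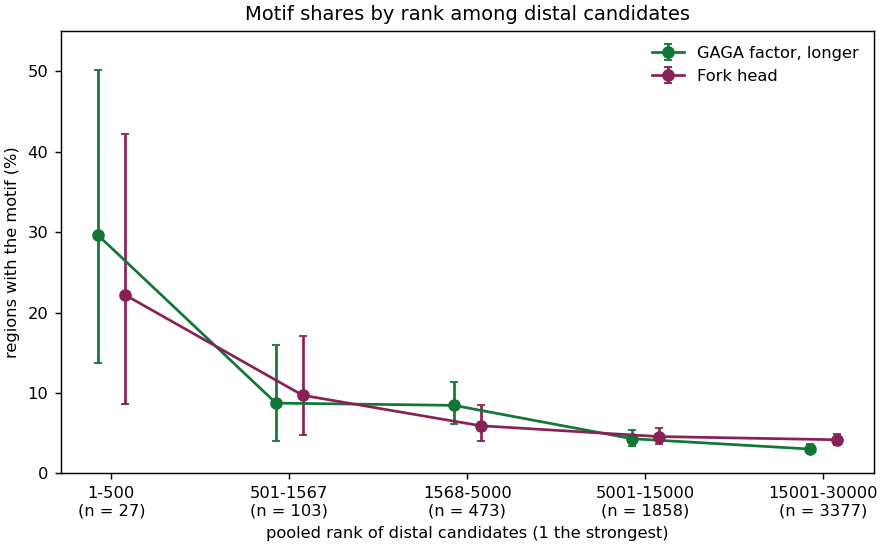
Share of distal candidates (y axis, %) with GAGAGAG (green) and with TGTTTAC (purple) within 100 bp of the summit, by pooled rank (x axis), with 95% Clopper-Pearson intervals. Both shares are highest in the 27 regions of ranks 1 to 500, at 29.6% and 22.2%.

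Base composition moved with the motifs. In 3 classes of the distal regions by GC content, from low to high, TGTTTAC was in 14.8%, 24.2% and 0% of the distal peaks, against 6.24%, 4.51% and 2.77% of the others. GAGAG was in 24.1%, 51.5% and 58.1% of the distal peaks, against 22.9%, 28.1% and 30.6%. At low GC content the GAGAG shares were thus nearly equal, and none of the 43 peaks of the highest class held TGTTTAC, which allows a share of up to 8.22%.

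The shares of the other motifs were not told apart from those in the other distal candidates. The Pleiohomeotic core GCCAT, bound by the protein that recruits Polycomb complexes, was in 36.2% (27.9 to 45.0), against 40.6%, and its longer form GCCATTTT in 2.31%, against 2.21%. None of 2 motifs of housekeeping promoters was found in the 130 distal peaks, which allows a share of up to 2.80% each: TATCGATA, the DREF site, was in 0.158% of other distal candidates and in 4.38% of the peaks that were not distal, and GGTCACAC, Motif 1, was in 0.333% and 3.34%. CACACACA was in 14.6% (9.03 to 21.9), against 9.43%. CAGGTAG, the Zelda site, was in 0.769%, against 1.38%, and CCGGAAG, the ETS site, in 2.31% (0.478 to 6.60), against 0.736%. For 17 of the 20 motifs the interval in distal peaks held the share of the other distal candidates, the exceptions being the 2 GA repeats and TGTTTAC.

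The distance limit cut through a continuous set. The nearest distal peak lay 5028 bp from a TSS, in an intron of neur (neuralized, a ubiquitin ligase of Notch signalling), and ranked 1291. Just outside the limit, a bun intron at 4974 bp held a peak of rank 395. Among all candidates the closest on the outside lay at exactly 5000 bp, in an intron of Eip75B, at rank 1997. The most distant peak, 42235 bp from a TSS in an intron of mamo (a zinc finger factor), ranked 1479, with rank 872 in replicate 2 and no candidate within 100 bp in replicate 4. An intron of Snoo (the Drosophila Ski family protein) held a peak at 36208 bp, of rank 1085, with ranks of 3098 in replicate 2 and 805 in replicate 4. The interval between NijA and CG43245 held one at 33322 bp, of rank 1461, with ranks of 4444 and 869. In pum (pumilio, a translational repressor) the peak lay 30831 bp from a TSS and ranked 542, with ranks of 1030 and 458. Of these 4, pum was the only one among the 1567 strongest of both replicates.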

How the data were processed

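ChIP-seq peak lists of 2 replicates of 1 group were analysed. Per the text deposited with the files and the labels, the authors gave positions in dm6, called against 1 control alignment: 30000 candidate regions per replicate, 30000 pooled, and 1567 that passed an IDR threshold. The deposited signal value, whose scale is not stated, served for ranks, to order regions, and for the signals printed and plotted. For the aligner, the caller and the IDR threshold, no name or value is given in the sources used here. Positions are printed 1-based.

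TSSs and exons came from Ensembl release 115, without transposable elements, and sequence from the RefSeq genome of the same assembly. Hosts are genes that contain the summit, by choice the coding one with the nearest TSS, and elsewhere both flanking coding genes. Shares carry Clopper-Pearson 95% intervals. The 6 share comparisons used two-sided Fisher exact tests (scipy 1.17.1) with Benjamini-Hochberg adjustment at 0.05, and scripts were tested on simulated regions. Named are hosts of the 25 strongest distal peaks, genes with 3 or more, at most 4 genes per list, and those at the limit and farthest. Genes with 2 distal peaks, and bun, were chosen after values were seen. Members, 12 gene lists, 20 motifs and tests were chosen with earlier results of these data known. The neighbourhood measures, rank classes, GC classes and flanking bases were added after the values were seen.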

Additional observations from a re-analysis of the deposited data

How the results depend on the processing

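The lower peak share of distal regions kept its direction and its side of the threshold in every alternative tried: other distance limits, coding TSSs only, transposable elements counted, a stricter peak threshold, the 10000 strongest candidates only, merging, and each replicate alone. The number of distal peaks, 130 as reported, was 293 with a limit of 2000 bp, 41 with 10000 bp, and 27 with the 500 strongest candidates as peaks. It was 113 with TSSs of transposable elements counted and 187 with coding TSSs only. The odds ratio of X against autosomes, not past the threshold in any setting, turned to 1.04 with a limit of 2000 bp, 1.14 with coding TSSs only and 1.12 among the 10000 strongest candidates. That of introns against intergenic stretches turned to 0.788 beyond 10000 bp. The cause was not tested. Each replicate alone gave odds ratios of 0.353 and 0.382 for distal against other candidates. No paired analysis was possible because the samples form 1 group. Motif shares depend on the window: within 50 bp of the summit TGTTTAC was in 9.23% of distal peaks, against 2.54% of other distal candidates, and GAGAGAG in 7.69%. With 2 replicates, unknown depth and no untagged control, the occupancy of single weak regions cannot be resolved.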
